A study of Mus musculus with 74 samples.

Results

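The 8 genes described here encode the mouse DNA methylation machinery: the DNA methyltransferases Dnmt1, Dnmt3a and Dnmt3b, their catalytically inactive relative Dnmt3l, the Dnmt1 partner Uhrf1, and the dioxygenases Tet1, Tet2 and Tet3. They were taken by gene name from both expression tables of the series. All 8 were found in each, among 21241 genes in the table of reprogramming in neural stem cell (NSC) medium and among 20558 genes in the table of a parallel experiment in several media. All 8 passed the filter on low values.

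In mammals, cytosine methylation at CpG sites is copied onto newly made DNA by Dnmt1, which Uhrf1 guides to hemimethylated sites behind the replication fork. New methylation is laid down by Dnmt3a and Dnmt3b, and Dnmt3l stimulates both in germ cells and pluripotent cells without methylating DNA itself. Tet1, Tet2 and Tet3 oxidise methylcytosine, the first step of active demethylation. Fibroblasts keep the methylation of a differentiated cell, and reprogramming to a neural stem cell or a pluripotent cell involves removing and rewriting part of it.

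The study followed the conversion of mouse embryonic fibroblasts (MEFs) by Sox2, Sox17 or the engineered Sox17 called eSox17FNV, and messenger RNA was sequenced after oligo(dT) capture. In the NSC-medium experiment, Sox2-GFP MEFs carried the reverse transactivator M2rtTA and doxycycline-inducible lentiviruses. The cells received Brn4, Klf4 and c-Myc with eSox17FNV (called 4-factor eSox17FNV cells here), with Sox17 (Sox17 cells) or with Sox2 (Sox2 cells), or Klf4 and eSox17FNV only (2-factor eSox17FNV cells). They were grown with bFGF and EGF, each at 10 ng/mL, and given doxycycline (Dox) at 1 µg/mL for 18 days. Libraries came from days 4, 8, 12 and 18 on Dox and days 24 and 30 after it. The references were Sox2-GFP MEFs at passage 1 in MEF medium, without factors, primary Sox2-GFP NSCs at passage 15, and 2 induced NSC (iNSC) lines at passage 15. One line was made with Brn4, Klf4, c-Myc and eSox17FNV (the 4-factor line) and one with Klf4 and eSox17FNV (the 2-factor line). In the parallel experiment, MEFs carrying Nanog-CreER, Rosa26-tdTomato and Sox2-GFP received Klf4, c-Myc and eSox17FNV (3-factor cells). These were kept in N2B27, a serum-free medium, with Dox until day 8. They then went into NSC medium or into LIF/2i, which holds LIF at 10 ng/mL and the inhibitors CHIR99021 at 3 µM and PD0325901 at 1 µM and favours naive pluripotent cells. Dox was removed at day 16, and libraries came from days 4, 8, 12, 16, 20 and 24.

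There were 80 library columns in 38 groups. Each group had 2 libraries, except the Sox17 and Sox2 cells at day 30 with 1 each. The labels do not say that the 2 libraries of a group came from separate cultures, so each p-value covers only the spread between these libraries. The values are the authors' normalized tag counts, and the depth behind them is unknown. The 6 libraries of the MEFs, the NSCs and the 4-factor line stand in both tables, which were normalized separately, so no value is compared across the tables. In the NSC-medium table, 1 column, Sox2 cells at day 24 replicate 1, stood apart. Its values correlated with those of its replicate at r = 0.0578, against 0.948 to 0.960 for the other pairs of that table, and 24.5% of its values were 0. It was left out of the results below, and its inclusion is given wherever it ended a call. The fit shares 1 estimate of the spread per gene over all groups of a table. Including the column could therefore change the adjusted p of every comparison. The log2 difference stayed as it was wherever Sox2 cells of day 24 were not compared. The sample descriptions of days 24 and 30 are written in a different style from those of days 4 to 18. A batch that went with the style cannot be told apart from the day in the NSC-medium courses. MEFs differed from the first transduced cells in medium, Dox and factors at once, and in the parallel experiment also in genotype.

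Markers matched the labels of the references. The 8 fibroblast markers summed to 222922 and 223242 in the MEFs and to 122 and 200 in the NSCs, where Postn, Pdgfrb and Twist1 were listed at 0. The 8 NSC markers summed to 118657 and 118733 in the NSCs, 73255 and 80017 in the 2-factor line, and 1757 and 1881 in the MEFs. Cells late in the courses were not free of fibroblast RNA. At day 30 the fibroblast sum was 185457 and 191343 in 4-factor eSox17FNV cells and 119984 and 164152 in 2-factor cells, and at day 24 in LIF/2i it was 169436 and 170682. In such bulk samples, fewer cells of a type and less RNA per cell cannot be told apart.

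On GRCm38 (GENCODE M21), Dnmt1 lies on the minus strand of chromosome 9 (20907209 to 20959888) and Uhrf1 on the plus strand of chromosome 17 (56303321 to 56323486). Dnmt3a lies on chromosome 12 (3806007 to 3914443, plus), Dnmt3b on chromosome 2 (153649450 to 153687730, plus) and Dnmt3l on chromosome 10 (78041947 to 78063622, plus). Tet1 lies on chromosome 10 (62804570 to 62908996, minus), Tet2 on chromosome 3 (133463679 to 133545139, minus) and Tet3 on chromosome 6 (83362373 to 83459084, minus). All values are totals over a gene, so isoforms such as those of Dnmt1 or Dnmt3a are not separated. The strand setting of the counting is not given in the sources used here, and 3 members share exon bases with a gene on the opposite strand: Dnmt3a with Dnmt3aos (133 bases), Dnmt3l with Aire (67 bases) and Tet2 with Gm42567 (43 bases).

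The courses below turn on Dnmt1 and Uhrf1, which moved with genes of DNA replication, and E2F factors are the classical activators of replication genes. The RefSeq promoter windows of the 8 genes on GRCm38.p6 (15 windows of 300 bases, 250 before to 50 after a start) were therefore searched on both strands for the E2F letters TTTCCCGC, TTTCGCGC, TTTGCCGC and TTTGGCGC. One window of Dnmt1 and one of Uhrf1 held such letters, and the windows of the other 6 genes did not. Over all promoters, 744 of 32851 windows (2.27%) and 704 of 27025 genes (2.61%) held them. The stretches are shown 5′ to 3′ on the strand of the gene, with the matched letters in capitals. The first Dnmt1 stretch carries TTTCGCGC read on the opposite strand and lies at chr9:20952824-20952853. The second lies at chr9:20952574-20952601, and both overlap an annotated exon. The Uhrf1 stretch lies at chr17:56304117-56304146 and overlaps none.
Dnmt1, 219 bases before the start: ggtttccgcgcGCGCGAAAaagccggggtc
Dnmt1, 33 bases after the start: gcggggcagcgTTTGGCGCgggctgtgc
Uhrf1, 185 bases before the start: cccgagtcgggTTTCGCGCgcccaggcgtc
These matches describe letters and not binding. The E2F letters were chosen with the expression results known, and genes with several windows have more chances of a match. A part of E2F factors in the Dnmt1 and Uhrf1 results was not tested. The octamer ATGCAAAT, the letters bound by Oct4 and related factors, was in 570 of all windows (1.74%) and in none of these 15, which says nothing of the factor.

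Primary NSCs differed from MEFs most in Tet1, Dnmt3a and Tet2. Tet1 was 133 and 155 normalized tags in the MEF libraries and 1045 in both NSC libraries, or 144.0 ± 15.6 (SD, n = 2) against 1045. This was a log2 difference of 2.85 (SE 0.17), or 7.19-fold. Dnmt3a was 491 and 540 in MEFs and 2324 and 2151 in NSCs, a log2 difference of 2.11 (SE 0.10). Tet2 was 259 and 291 in MEFs and 991 and 1189 in NSCs (log2 difference 1.98, SE 0.14), and Tet3 was 804 and 851 in MEFs and 2505 and 2436 in NSCs (1.58, SE 0.10). For these 4 genes both NSC libraries lay far above both MEF libraries, by 2.98-fold to 7.19-fold.

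The pair that maintains methylation differed less. Dnmt1 was 2783 and 2832 in MEFs and 4093 and 2971 in NSCs (log2 difference 0.31, adjusted p = 0.0906 in limma), and Uhrf1 was 1445 and 1513 against 2701 and 2081 (0.68, adjusted p = 0.0622). Dnmt3b was low in both, at 25 and 33 in MEFs and 64 and 57 in NSCs. Dnmt3l was lower still, at 16 and 5 in MEFs and 3 and 0 in NSCs.

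Differences were tested with limma on log2(value + 2), with Benjamini-Hochberg adjustment over all genes tested in the table, and called at an adjusted p under 0.05 and at least a 2-fold difference. Log2 differences on this scale understate the change of low genes such as Dnmt3l. Between NSCs and MEFs, 34.4% of all genes were called, and of the 8 members 5 were higher in NSCs and 1 lower. The adjusted p was 1.07e-14 for Tet1, 1.36e-16 for Dnmt3a, 3.5e-13 for Tet2 and 1.24e-13 for Tet3. Dnmt3b was also called (log2 difference 1.02, SE 0.22, adjusted p = 0.000255), but fell just under the 2-fold limit without MEF replicate 1 (0.83) or NSC replicate 1 (0.94). The call of lower Dnmt3l (−1.83, SE 0.50, adjusted p = 0.0023) was lost without MEF replicate 1 (adjusted p = 0.1) or NSC replicate 2 (adjusted p = 0.0957). With the discordant Sox2 column in the fit, the adjusted p of Dnmt3a was 0.39 and that of Tet3 0.391. Their log2 differences of 2.11 and 1.58 were unchanged, since the column belongs to neither group and entered only through the shared spread.

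Between the iNSC lines and primary NSCs no member differed by the limit used for a call. Tet1 was 1059 and 940 in the 4-factor line and 1230 and 863 in the 2-factor line, around the NSC level of 1045. Dnmt3a was 2157 and 1997 in the 4-factor line and 3435 and 3715 in the 2-factor line. Dnmt3l was listed at 0 in all 4 libraries of the lines. Dnmt1 was 2653 and 2324 in the 4-factor line (log2 difference from NSCs −0.49, adjusted p = 0.0607) and 4093 and 4737 in the 2-factor line (0.34, adjusted p = 0.137). Uhrf1 was 1626 and 1509 in the 4-factor line (−0.60, adjusted p = 0.324) and 1736 and 2248 in the 2-factor line (−0.26, adjusted p = 0.696). Tet3 passed the adjusted p in the 2-factor line (0.29, adjusted p = 0.0399) and not in the 4-factor line (−0.13, adjusted p = 0.625). Tet2 passed the adjusted p of limma in both lines, in opposite directions. It was lower in the 2-factor line, with overlap (−0.44, adjusted p = 0.0184), and higher in the 4-factor line (0.52, adjusted p = 0.0205).

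None of the 8 members was called by limma between the 4-factor line and NSCs, where 2.02% of all genes were, and 2 of the 8 had an unadjusted p under 0.05. The largest of these differences was in Tet2, at 1539 and 1575 in the line against 991 and 1189 (log2 difference 0.52, SE 0.14, adjusted p = 0.0205), below the 2-fold limit. Between the 2-factor line and NSCs again none was called by limma, against 8.88% of all genes, and 4 had an unadjusted p under 0.05. Here Dnmt3a was 1.60-fold higher in the line (log2 difference 0.68, SE 0.10, adjusted p = 1.04e-05), with both libraries above both NSC libraries.

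**Figure D1:**
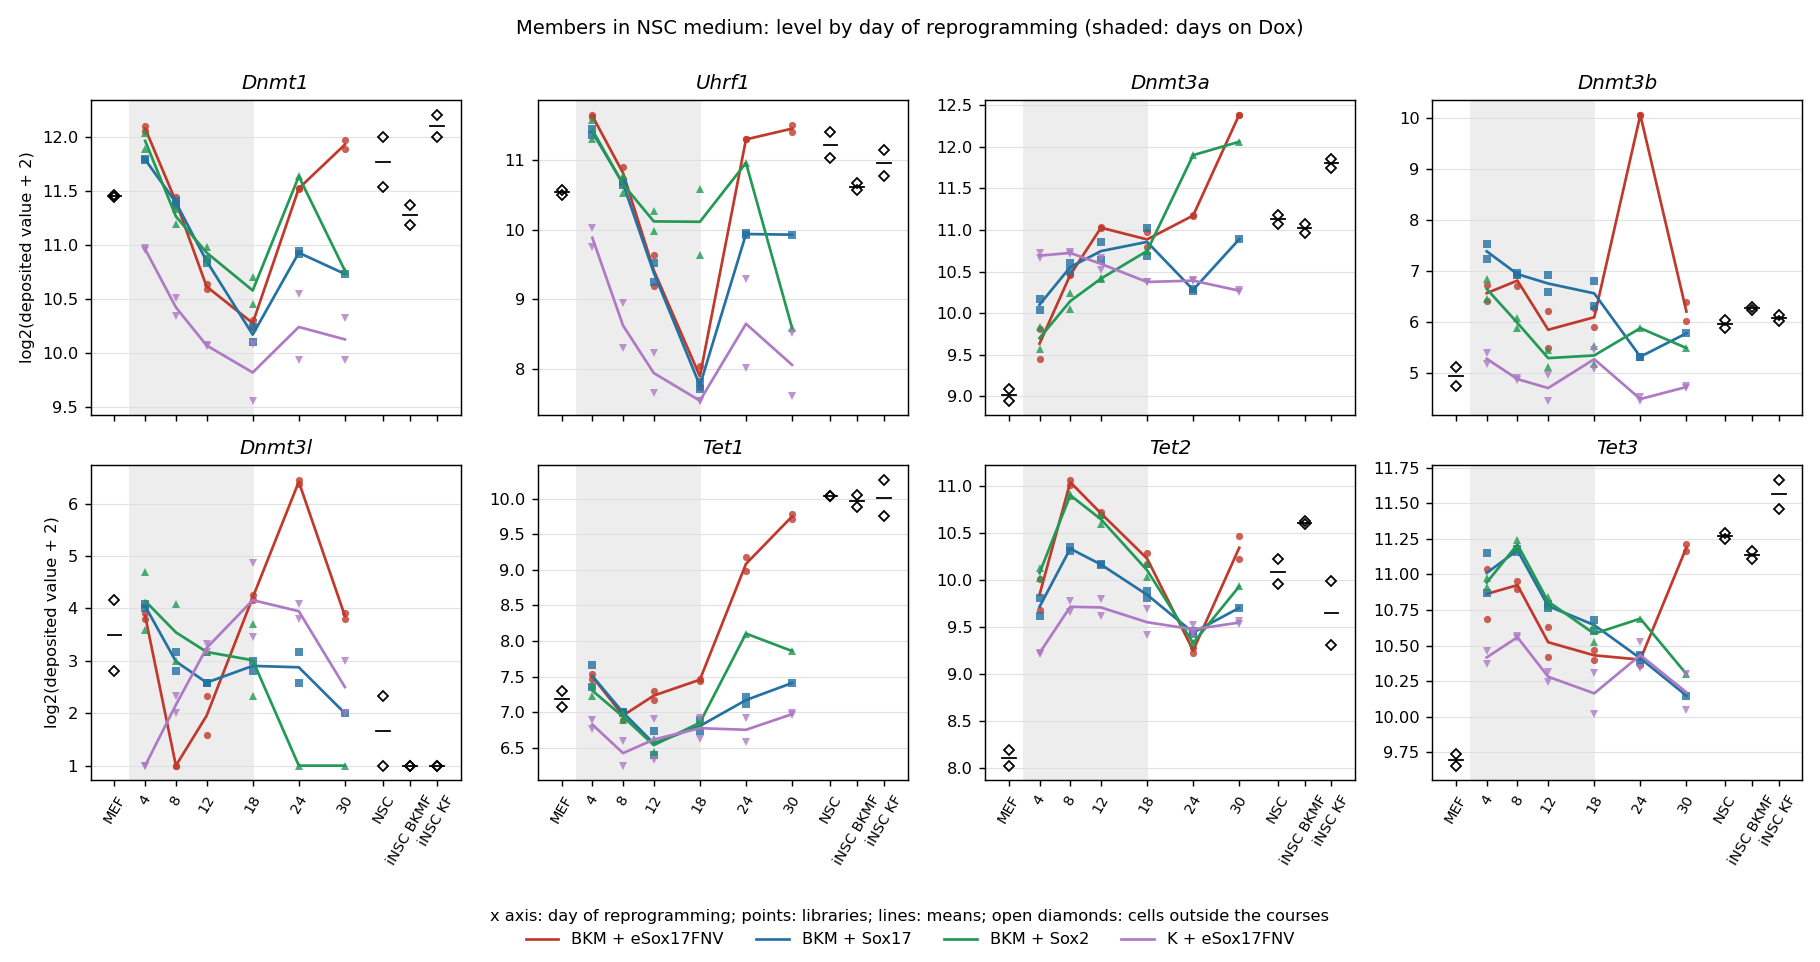
Level of each member, as log2(value + 2) of the authors' normalized tag counts, by day in the 4 cocktails of the NSC-medium experiment, with 1 point per library, shading for days on Dox lines for means, and open diamonds for MEFs, NSCs and the iNSC lines (BKM, Brn4, Klf4 and c-Myc; K, Klf4; BKMF and KF, the 4-factor and 2-factor lines). Dnmt1 and Uhrf1 fall from day 4 to day 18 in every cocktail, Dnmt3b peaks in 4-factor eSox17FNV cells at day 24 (1075 and 1064), and Tet1 comes nearest to the NSC level in those cells at day 30 (881 and 836).

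Within 4 days of factor induction, Dnmt3a, Dnmt3b, Tet2 and Tet3 were already above the MEF level in the mean of the 4 cocktails. Tet2 had gone from 259 and 291 in MEFs to between 594 (2-factor cells) and 1120 (Sox2 cells). Tet3 had gone from 804 and 851 to between 1322 and 2277. Dnmt3b was 150 and 183 in Sox17 cells, 83 and 104 in 4-factor eSox17FNV cells, 86 and 113 in Sox2 cells and 34 and 40 in 2-factor cells, against 25 and 33 in MEFs. In all 4 genes, every day 4 library lay above both MEF libraries.

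Of the 8 members, 4 were called higher at day 4 and none lower, against 18.1% of all genes called in either direction. The log2 differences were 1.60 (SE 0.11) for Tet2, 1.53 (SE 0.18) for Dnmt3b, 1.11 (SE 0.08) for Tet3 and 1.02 (SE 0.08) for Dnmt3a, with adjusted p from 8.14e-13 (Tet2) to 3.34e-08 (Dnmt3b) in limma. Dnmt3a stood at the 2-fold limit and fell under it without MEF replicate 1 (0.95) or without day 4 replicate 1 of 4-factor eSox17FNV cells (0.97) or Sox2 cells (0.98). With the discordant column included, the adjusted p was 0.775 for Dnmt3a and 0.569 for Tet3. Dnmt1, Uhrf1, Tet1 and Dnmt3l did not pass in the mean of the 4 cocktails. For Dnmt1 and Uhrf1 that mean joined cocktails on either side of the MEF level. Group means of Uhrf1 were 3166, 2696 and 2765 in 4-factor eSox17FNV, Sox17 and Sox2 cells, 946 in 2-factor cells and 1479 in MEFs. Those of Dnmt1 were 4332, 3548 and 4005, then 1994 and 2808. In both genes no cocktail overlapped the MEFs, and single cocktails were not tested against MEFs.

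Over the 18 days of Dox, the maintenance genes fell in all 4 cocktails. Uhrf1 in 4-factor eSox17FNV cells was 3125 and 3206 at day 4, 1895 and 1694 at day 8, 792 and 584 at day 12, and 213 and 262 at day 18. Each day's libraries lay wholly below those of the day before, and the change to day 18 was a log2 difference of −3.73 (SE 0.31), or 0.0752-fold. In Sox17 cells Uhrf1 went from 2609 and 2783 to 223 and 208 (−3.63), and in 2-factor cells from 1037 and 855 to 185 and 185 (−2.34). In Sox2 cells Uhrf1 was 2505 and 3025 at day 4 and 1530 and 796 at day 18, a log2 difference of −1.32 in which the 2 day 18 libraries differed widely.

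Dnmt1, the maintenance methyltransferase, also fell in each cocktail. In 4-factor eSox17FNV cells it was 4276 and 4388 at day 4 and 1212 and 1267 at day 18 (log2 difference −1.80, SE 0.16). In Sox17 cells it went from 3558 and 3537 to 1095 and 1209 (−1.62), and in Sox2 cells from 3798 and 4212 to 1669 and 1400 (−1.39). In 2-factor cells it went from 1983 and 2004 to 1081 and 752 (−1.14), or −0.88 and under the 2-fold limit without day 18 replicate 2. The day 4 and day 18 libraries did not overlap in any cocktail.

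The fall of Uhrf1 had an adjusted p of 6.13e-11 in 4-factor eSox17FNV, 1.62e-10 in Sox17 and 1.25e-06 in 2-factor cells. For Dnmt1 the adjusted p was 1.4e-10 in 4-factor eSox17FNV cells, 1.55e-09 in Sox17, 3.49e-08 in Sox2 and 2.03e-06 in 2-factor cells. In Sox2 cells the Uhrf1 call (adjusted p = 0.000923) was lost without day 18 replicate 2 (−0.85, adjusted p = 0.0652) and in a fit of only the groups compared (adjusted p = 0.0812). With the discordant column included, none of these 8 calls held: the adjusted p was 0.0759 to 0.897 for Uhrf1 and 0.624 to 1 for Dnmt1. The summed level of 20 replication genes fell beside them, from 57290 and 62678 at day 4 to 13202 and 13730 at day 18 in 4-factor eSox17FNV cells, and from 26377 and 26507 to 12724 and 11124 in 2-factor cells. Of the 20, 19 fell in 4-factor eSox17FNV cells, 19 in Sox17 cells, 18 in Sox2 cells and 12 in 2-factor cells. The part of replication in the Dnmt1 and Uhrf1 results was not tested.

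The de novo enzyme Dnmt3a rose in 4-factor eSox17FNV and Sox2 cells while the maintenance pair fell. In 4-factor eSox17FNV cells it was 897 and 698 at day 4, 1400 and 1413 at day 8, 2091 and 2081 at day 12 and 2013 and 1777 at day 18, a log2 difference of 1.26 from day 4 to day 18 (SE 0.10, adjusted p = 4.84e-11). In Sox2 cells it rose from 908 and 757 to 1720 and 1715 (1.05, adjusted p = 3.01e-09), a value of 0.92 without day 4 replicate 2. In Sox17 cells it was 1050 and 1145 at day 4 and 2081 and 1649 at day 18 (0.76, adjusted p = 5.86e-07), under the 2-fold limit. In 2-factor cells Dnmt3a was already 1683 and 1621 at day 4 and was 1327 and 1324 at day 18 (−0.32, adjusted p = 0.0189). With the discordant column included, the adjusted p of the rise was 0.855 in 4-factor eSox17FNV cells and 1 in Sox2 cells.

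Dnmt3b fell on Dox in Sox2 cells, from 86 and 113 to 44 and 34 (log2 difference −1.31, SE 0.22, adjusted p = 2.26e-05). In Sox17 cells it was 150 and 183 at day 4 and 78 and 110 at day 18 (−0.83, adjusted p = 0.00333), under the limit. In 4-factor eSox17FNV cells it was 83 and 104, then 58 and 76 (−0.47, adjusted p = 0.0885). Dnmt3l stayed near the bottom of the table on Dox, between 0 and 27 in every cocktail. Its one call was in 2-factor cells, where it was listed at 0 in both day 4 libraries and stood at 9 and 27 at day 18 (adjusted p = 1.48e-05).

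Tet2, a widely expressed Tet enzyme, had its highest level of the NSC-medium table at day 8, the discordant column aside. In 4-factor eSox17FNV cells it was 1026 and 819 at day 4, 2062 and 2143 at day 8, 1650 and 1691 at day 12 and 1245 and 1151 at day 18. Sox2 cells had the same shape, with 1034 and 1120, then 1923 and 1896, 1549 and 1650, and 1048 and 1151. In Sox17 cells the day 8 value was 1308 and 1268, and in 2-factor cells 805 and 874. Between days 4 and 18 Tet2 was not called in any cocktail, with log2 differences of 0.03 to 0.38. Tet3 was not called either, with log2 differences of −0.25 to −0.43. Its day 4 and day 18 libraries did not overlap in any cocktail. Tet3 was lower by the adjusted p of limma in 4-factor eSox17FNV (0.000905), Sox17 (0.00459) and Sox2 cells (0.00573), and not in 2-factor cells (0.0664). Tet1, a Tet enzyme prominent in pluripotent cells, stayed between 74 and 201 in every library of the 4 cocktails on Dox. Within that range it fell by day 18 in Sox17 (−0.70, adjusted p = 0.00101) and Sox2 cells (−0.45, adjusted p = 0.0317). Both falls were under the 2-fold limit, without overlap of day 4 and day 18 libraries. In 4-factor eSox17FNV and 2-factor cells the log2 differences were −0.04 and −0.05.

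Counting all members, the change from day 4 to day 18 was called for 3 of 8 in 4-factor eSox17FNV cells (22.9% of all genes), 2 in Sox17 cells (19.0%), 4 in Sox2 cells (17.0%) and 3 in 2-factor cells (10.4%). The medians of the members' log2 differences were −0.24, −0.76, −0.79 and −0.15, beside medians over all genes of 0, 0, −0.09 and 0. Whether courses differed was tested as an interaction. Between the 4-factor eSox17FNV and Sox17 courses no member was called by limma, against 2.14% of all genes, with 3 at an unadjusted p under 0.05. The nearest was Dnmt3a (difference of log2 differences 0.50, SE 0.14, adjusted p = 0.0415). Between the 2-factor and 4-factor eSox17FNV courses, 14.7% of all genes and 3 of 8 members were called. Dnmt3a moved by −1.57 (SE 0.14, adjusted p = 1.08e-08) in 2-factor cells relative to 4-factor cells. Uhrf1 fell by less in 2-factor cells, with a difference of 1.40 (SE 0.44, adjusted p = 0.0152) that was lost without day 18 replicate 1 of 4-factor eSox17FNV cells (1.25, adjusted p = 0.0644) or day 4 replicate 2 of 2-factor cells (1.26, adjusted p = 0.063). The same interaction for Dnmt3l (adjusted p = 0.00278) rested on 2 day 4 libraries listed at 0. With the discordant column included, the adjusted p of both Dnmt3a and Uhrf1 was 1.

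On Dox, averaged over days 4 to 18, no member differed by 2-fold between the Sox factors. None was called by limma between 4-factor eSox17FNV and Sox17 cells (3.72% of all genes), with 4 at an unadjusted p under 0.05. Dnmt3b had a mean of 82.3 against 122.1 in Sox17 cells (log2 difference −0.58, SE 0.11, adjusted p = 0.000276), and Tet2 had 1473 against 1048 (0.44, SE 0.07, adjusted p = 1.65e-05). None was called between 4-factor eSox17FNV and Sox2 cells either (6.18%), with 6 at an unadjusted p under 0.05. Uhrf1 had a mean of 1471 against 1662 in Sox2 cells, and the mean of its log2 differences within days was −0.64 (SE 0.15, adjusted p = 0.00184). The days went different ways: in 4-factor eSox17FNV against Sox2 cells Uhrf1 was 3125 and 3206 against 2505 and 3025 at day 4, and 1895 and 1694 against 1471 and 1743 at day 8. It was then 792 and 584 against 1003 and 1224 at day 12, and 213 and 262 against 1530 and 796 at day 18, with no overlap on these last days.

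The 2-factor cells lack Brn4 and c-Myc. Within each day on Dox, 2-factor cells had lower Dnmt1, Dnmt3b, Uhrf1, Tet1, Tet2 and Tet3 than 4-factor eSox17FNV cells. Libraries did not overlap on any of the 4 days. The share of all genes whose libraries separated so was not counted, here or in other comparisons. At day 8, for example, Dnmt3b was 27 and 28 in 2-factor cells and 120 and 102 in 4-factor cells, and Uhrf1 was 313 and 491 against 1895 and 1694. Averaged over the days, Dnmt3b (log2 difference −1.30, SE 0.11, adjusted p = 6.75e-11) and Uhrf1 (−1.44, SE 0.15, adjusted p = 4.76e-09) were called, 2 of 8 members against 14.5% of all genes. The other 4 passed the adjusted p and not the 2-fold limit: Tet2 at −0.90, Dnmt1 at −0.78, Tet1 at −0.63 and Tet3 at −0.33. With the discordant column included, the adjusted p of Uhrf1 was 0.168. Beside these, 4 of the 20 replication genes were lower in 2-factor cells.

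After Dox removal Dnmt3b and Dnmt3l peaked at day 24 in 4-factor eSox17FNV cells. Dnmt3b in 4-factor eSox17FNV cells was 58 and 76 at day 18, 1075 and 1064 at day 24 and 82 and 63 at day 30, while in the other cocktails it stayed between 20 and 57 at days 24 and 30. Dnmt3l followed with 16 and 17, then 81 and 86, then 13 and 12. The day 24 libraries of these cells were the highest of the whole NSC-medium table in both genes. The 8 pluripotent markers, among them Pou5f1 (Oct4) and Nanog, summed to 1288 and 2624 at day 18, 5026 and 5051 at day 24 and 563 and 528 at day 30 in the same cells, and all 8 were above 0 at day 24. The 6 epithelial markers summed to 9500 and 9502 at day 24 and to 61 and 68 at day 30. The part of either in the Dnmt3b and Dnmt3l values was not tested, and no test between days 18, 24 and 30 was made.

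Tet1 and Dnmt3a had another course in these cells, with no return by day 30. Tet1 was 172 and 175 at day 18, 503 and 580 at day 24 and 881 and 836 at day 30. Dnmt3a was 2013 and 1777, then 2324 and 2295, then 5365 and 5365, the highest Dnmt3a of the table. In Sox17 cells Tet1 was 147 and 137 at day 24 and 168 at day 30, and in 2-factor cells it lay between 94 and 125. Sox2 cells had 1 library a day, which the model takes to vary like the other groups, with Tet1 of 273 and 230 and Dnmt3a of 3824 and 4276 at days 24 and 30. Over both days Dnmt3a in 4-factor eSox17FNV cells minus Sox2 cells was −0.20 on the log2 scale (SE 0.09, adjusted p = 0.0674, and 2.53 with adjusted p = 0.0757 if the discordant column is included).

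The maintenance pair was high again in 4-factor eSox17FNV cells after Dox. Uhrf1 was 2505 in both libraries of day 24 and 2878 and 2701 at day 30, against 213 and 262 at day 18. It was 990, 964 and 971 in the Sox17 libraries of days 24 and 30, and 622, 256, 363 and 193 in 2-factor cells. In the single Sox2 libraries it was 1983 at day 24 and 383 at day 30, so its difference from Sox2 cells lay mostly at day 30. Dnmt1 was 2939, 2955, 4017 and 3798 in 4-factor eSox17FNV cells, 1965, 1933 and 1700 in Sox17 cells and 1493, 978, 1277 and 975 in 2-factor cells. In Sox2 cells it was 3185 at day 24, above both 4-factor eSox17FNV libraries of that day, and 1736 at day 30.

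Over days 24 and 30, 5 of 8 members were higher in 4-factor eSox17FNV than in Sox17 cells, against 17.8% of all genes called. The log2 differences were 2.70 for Dnmt3l (SE 0.39, adjusted p = 1.74e-06), 2.58 for Dnmt3b (SE 0.18, adjusted p = 1.65e-12) and 2.13 for Tet1 (SE 0.13, adjusted p = 2.58e-13). Uhrf1 differed by 1.44 (SE 0.24, adjusted p = 1.66e-05) and Dnmt3a by 1.20 (SE 0.08, adjusted p = 1.33e-12). Against Sox2 cells, 4 members were higher (15.1% of all genes): Dnmt3b (2.45, adjusted p = 5.88e-11), Uhrf1 (1.60, adjusted p = 2.02e-05), Tet1 (1.43, adjusted p = 5.86e-09) and Dnmt3l, which was listed at 0 in the Sox2 libraries (adjusted p = 9.86e-09). Against the 4-factor eSox17FNV cells, 2-factor cells were lower in 6 members (21.7% of all genes), by log2 differences from −1.45 (Dnmt3a, SE 0.07, adjusted p = 8.29e-16) to −3.53 (Dnmt3b, SE 0.16, adjusted p = 8.75e-17). Between them stood Dnmt1 (−1.55), Dnmt3l (−1.91), Tet1 (−2.55) and Uhrf1 (−3.02). Tet2 and Tet3 were not called in these 3 comparisons. The differences of Dnmt3b lay mostly at day 24. At day 30 Dnmt3b was 82 and 63 in 4-factor eSox17FNV cells and 24 and 25 in 2-factor cells. It was 53 in the single Sox17 library and 43 in the single Sox2 library of that day.

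With the discordant column included, the adjusted p against Sox17 cells was 0.731 for Dnmt3a and 0.591 for Uhrf1, and against 2-factor cells 0.394 for Dnmt1 and 0.461 for Dnmt3a. Against Sox2 cells that column, which lists Dnmt1 and Uhrf1 at 0, added Dnmt1 (3.19, adjusted p = 0.0308) and Tet3 (2.33, adjusted p = 0.0367) to make 6 called, with 31.7% of all genes called in place of 15.1%, and raised the difference of Uhrf1 to 4.09 and that of Tet1 to 2.60. The replication sum moved with these groups as well, at 49116 to 60584 in 4-factor eSox17FNV cells, 20874 to 26648 in Sox17 cells, 14442 and 48195 in Sox2 cells and 9724 to 20049 in 2-factor cells. Of its 20 genes, 8 were higher than in Sox17 cells, 8 higher than in Sox2 cells and 17 lower in 2-factor cells.

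At day 30, 4-factor eSox17FNV cells were also set against the established line of the same factors. The comparison called 29.6% of all genes and 2 of 8 members. Dnmt3a was 5365 in both day 30 libraries and 2157 and 1997 in the line (log2 difference 1.37, SE 0.10, adjusted p = 3.68e-12, or 0.707 with the discordant column). Dnmt3l was 13 and 12 at day 30 and listed at 0 in the line (adjusted p = 1.66e-05). Tet1 stood at 881 and 836 against 1059 and 940 (−0.22, SE 0.17, adjusted p = 0.282), and Dnmt3b, Tet2 and Tet3 were not called. Dnmt1 (0.65, adjusted p = 0.000734) and Uhrf1 (0.83, adjusted p = 0.0223) were higher at day 30 by less than 2-fold. The NSC markers of the day 30 cells summed to 16241 and 17066, against 115189 and 116394 in the line.

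In the parallel experiment, the maintenance genes were lower after the first 4 days in N2B27 than in MEFs. Dnmt1 was 2604 and 2655 in MEFs and 1068 and 1267 at day 4 (log2 difference −1.18, SE 0.21, adjusted p = 0.00049), and Uhrf1 was 1352 and 1411 against 404 and 601 (−1.48, SE 0.27, adjusted p = 0.000509). These were 2 of 8 members, against 18.4% of all genes, and 9 of the 20 replication genes were lower beside them. Tet2 was 304 and 292 and Tet3 548 and 530 at day 4, against 267 and 298 and 777 and 817 in MEFs, and neither was called.

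Between days 4 and 8 in N2B27, Dnmt3b and Dnmt3l rose. Dnmt3b went from 39 and 41 to 206 and 201 (log2 difference 2.29, SE 0.39, adjusted p = 0.00199), and Dnmt3l from 4 and 5 to 57 and 88 (3.49, SE 0.60, adjusted p = 0.00208). They were 2 of 8 members called, against 4.71% of all genes. The pluripotent sum was 770 and 858 at day 4 and 5468 and 2362 at day 8, and its part was not tested.

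**Figure D2:**
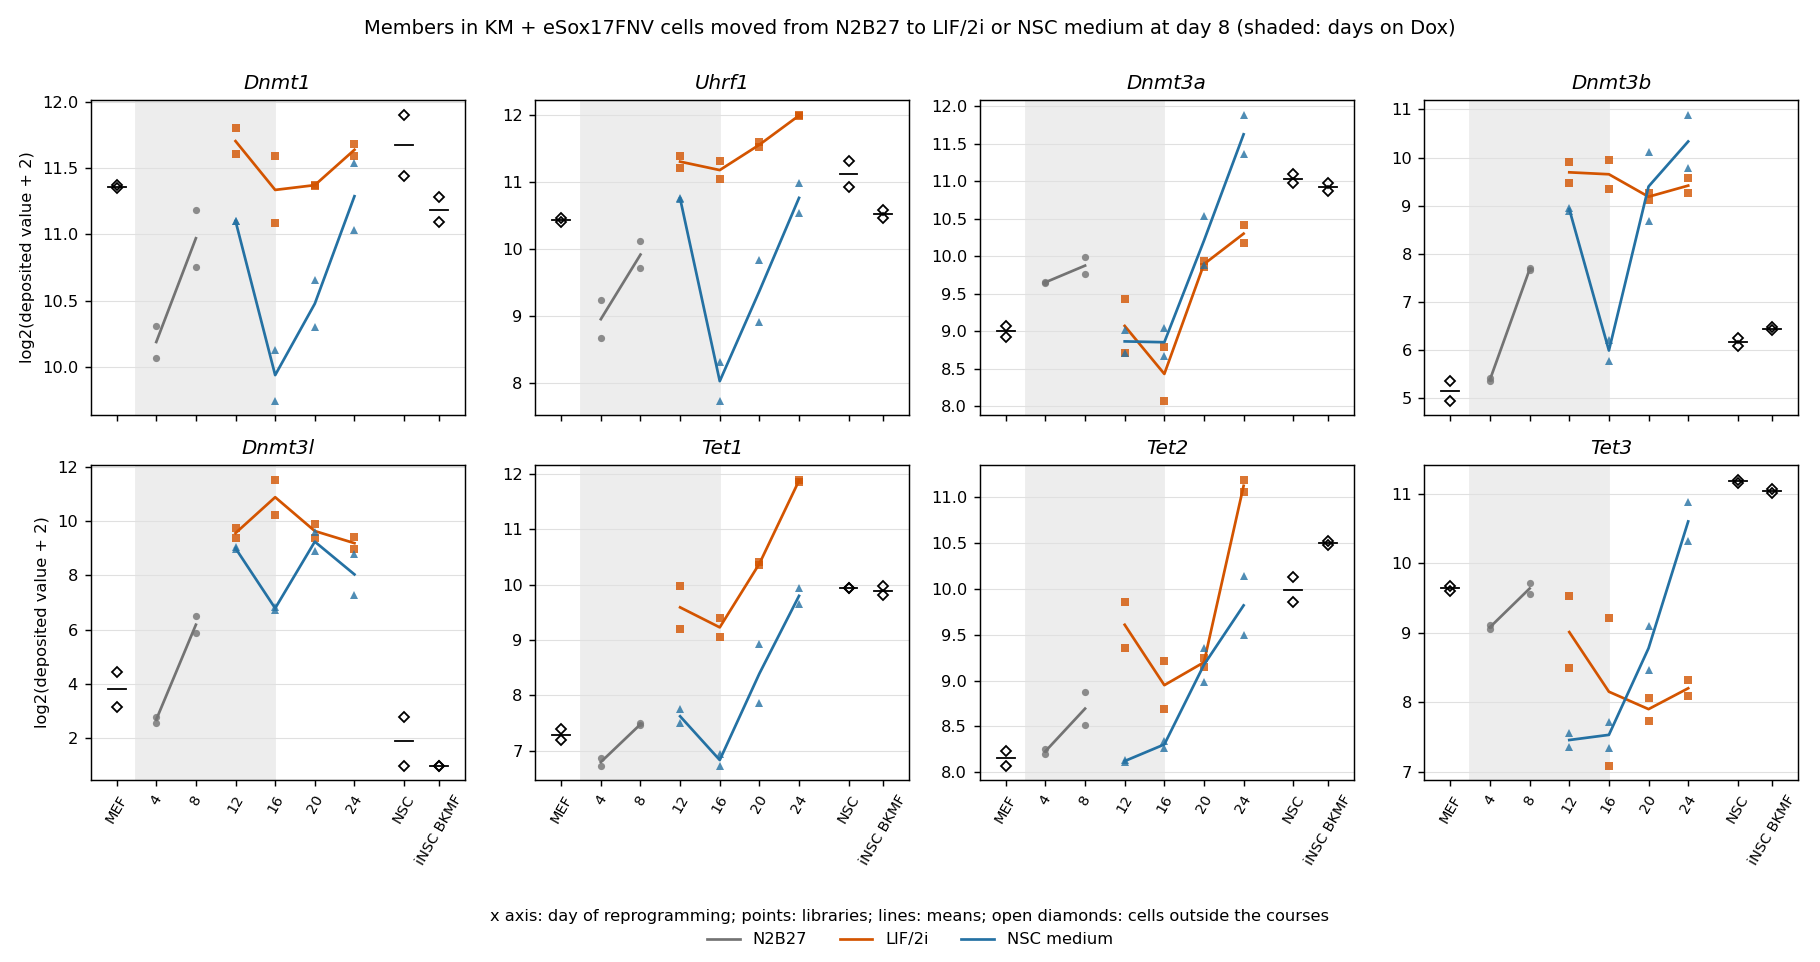
Level of each member, as log2(value + 2) of the authors' normalized tag counts, by day in 3-factor cells in N2B27 and then in LIF/2i or NSC medium, with 1 point per library, shading for days on Dox and diamonds for MEFs, NSCs and the 4-factor line. Tet1 climbs in LIF/2i to 3713 and 3809 at day 24, and Tet3 climbs in NSC medium, from 160 and 209 at day 16 to 1875 and 1281 at day 24.

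While Dox was on, 7 of the 8 members were called higher in LIF/2i than in NSC medium, against 15.5% of all genes called. Of these, Dnmt1, Tet2 and Tet3 lay at the 2-fold limit, and Tet3 overlapped between the media. Dnmt3l was 849 and 668 in LIF/2i at day 12 and 2957 and 1201 at day 16, against 500 and 522 and then 105 and 113 in NSC medium. Dnmt3b was 708, 965, 653 and 989 in LIF/2i, against 496 and 476 at day 12 and 53 and 72 at day 16 in NSC medium. Every LIF/2i library lay above every NSC-medium library of its day in both genes.

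Tet1 was 584 and 1008 at day 12 and 530 and 672 at day 16 in LIF/2i, against 213 and 178 and then 104 and 120 in NSC medium. Uhrf1 was 2367 and 2685, then 2097 and 2545 in LIF/2i, while in NSC medium it went from 1735 and 1709 to 211 and 317. The groups of each day did not overlap in these genes, nor in Dnmt1 and Tet2. Dnmt3a lay between 267 and 689 in LIF/2i and between 404 and 523 in NSC medium, and the media overlapped.

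The log2 differences on Dox were 2.32 for Dnmt3l (SE 0.42, adjusted p = 0.000374), 2.21 for Dnmt3b (SE 0.27, adjusted p = 1.16e-05), 2.18 for Tet1 (SE 0.19, adjusted p = 4.03e-07) and 1.85 for Uhrf1 (SE 0.19, adjusted p = 2.05e-06), and 15.5% of all genes were called. The other 3 calls lay at the 2-fold limit: Tet3 at 1.09 (SE 0.34, adjusted p = 0.0166), Tet2 at 1.07 (SE 0.15) and Dnmt1 at 1.00 (SE 0.15). Without LIF/2i day 12 replicate 2, Dnmt1 was 0.95, Tet2 0.94 and Tet3 0.83 (adjusted p = 0.0873), and without day 16 replicate 2 of that medium they were 0.88, 0.94 and 0.55 (adjusted p = 0.0663), so that 4 members remained called in either case. Without NSC-medium day 16 replicate 1, Dnmt1 was 0.91 and Tet3 0.99 (adjusted p = 0.0549). Tet3 overlapped between the media, with 134 and 592 in LIF/2i at day 16 and 160 and 209 in NSC medium, and had an adjusted p of 0.141 in a fit of only the groups compared. For Dnmt3a the log2 difference was −0.11 (SE 0.19, adjusted p = 0.677). Beside these results, the pluripotent sum was 23997 to 39139 in LIF/2i and 2918 to 10426 in NSC medium. The replication sum was 56621 to 59836 in LIF/2i, against 53913 and 52939 at day 12 and 15847 and 17524 at day 16 in NSC medium, and 10 of the 20 genes were higher. Their part was not tested.

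After Dox Tet1 and Tet3 differed between the media, in opposite directions. Tet1 rose in LIF/2i to 1348 and 1307 at day 20 and 3713 and 3809 at day 24, and in NSC medium to 230 and 484 and then 979 and 802. Tet3 was 211 and 266 at day 20 and 270 and 316 at day 24 in LIF/2i, but 351 and 543 and then 1875 and 1281 in NSC medium. In both genes the media did not overlap on either day. Tet2 was 606 and 567 at day 20 and 2343 and 2132 at day 24 in LIF/2i, against 505 and 655 and then 1127 and 723 in NSC medium. It overlapped at day 20 and was under the 2-fold limit over both days (0.67, adjusted p = 0.00167).

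Uhrf1 was 3079 and 2929 and then 4103 and 4024 in LIF/2i, against 480 and 906 and then 2023 and 1483 in NSC medium. Dnmt3a was 976 and 922 at day 20 and 1158 and 1366 at day 24 in LIF/2i, against 941 and 1477 and then 3786 and 2628 in NSC medium. Called between the media after Dox were Tet1 (log2 difference 2.03 for LIF/2i minus NSC medium, SE 0.19, adjusted p = 2.98e-07), Uhrf1 (1.71, SE 0.19, adjusted p = 1.91e-06) and Tet3 (−1.64, SE 0.34, adjusted p = 0.00067), 3 of 8 members against 24.5% of all genes. Dnmt3a was 0.57-fold in LIF/2i (−0.82, SE 0.19, adjusted p = 0.00192 in limma), under the 2-fold limit, as was Dnmt1 (0.62, SE 0.15, adjusted p = 0.00254). Dnmt3b and Dnmt3l were not called over both days and overlapped at day 20. At day 24 they did not overlap and went opposite ways. Dnmt3b was then 612 to 761 in LIF/2i against 875 to 1900 in NSC medium, and Dnmt3l 501 to 676 against 155 to 439. The pluripotent sum at day 24 was 89958 and 90184 in LIF/2i and 2392 and 7421 in NSC medium, and the replication sum was 79611 and 75152 against 51887 and 42642. Their part in these differences was not tested.

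Within each medium, days 20 and 24 after Dox were compared with days 12 and 16 on it. In NSC medium 5 members rose (20.5% of all genes called): Dnmt3b (log2 difference 2.40, adjusted p = 3.32e-06), Tet3 (2.20, adjusted p = 5.59e-05), Dnmt3a (2.06, adjusted p = 4.83e-07), Tet1 (1.87, adjusted p = 1.25e-06) and Tet2 (1.28, adjusted p = 5.21e-06). Dnmt3b overlapped, since it was 496 and 476 at day 12, 53 and 72 at day 16, 409 and 1108 at day 20 and 875 and 1900 at day 24. In LIF/2i Tet1 (1.72, adjusted p = 7.41e-06) and Dnmt3a (1.35, adjusted p = 6.65e-05) were called (11.6%). Tet2 (0.88, adjusted p = 0.00038) and Uhrf1 (0.53, adjusted p = 0.038) were higher there by the adjusted p and under the 2-fold limit. Dnmt3b was 551 and 613 at day 20 and 761 and 612 at day 24, not called against the days on Dox (−0.37, adjusted p = 0.306). The change differed between the media in Dnmt3b (LIF/2i minus NSC medium −2.78, SE 0.39, adjusted p = 9.1e-05) and Tet3 (−2.72, SE 0.48, adjusted p = 0.000528), 2 of 8 members against 13.9% of all genes. For Dnmt3a, Tet1 and Tet2 this interaction did not pass (adjusted p = 0.0555, 0.761 and 0.178).

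Against primary NSCs, 3-factor cells in NSC medium after Dox differed in 4 of 8 members, among 34.9% of all genes. Dnmt3b was 409 to 1900 in the 4 libraries and 74 and 66 in NSCs (log2 difference 3.70, SE 0.34, adjusted p = 1.34e-07). Dnmt3l was 155 to 777 against 5 and 0 (adjusted p = 1.82e-08). Tet3 was lower, at 351 to 1875 against 2354 and 2286 (−1.49, SE 0.41, adjusted p = 0.00515). Uhrf1 was called lower (−1.05, SE 0.24, adjusted p = 0.00112) with overlapping libraries, and fell short of 2-fold without NSC-medium day 20 replicate 1 (−0.82), day 24 replicate 2 (−0.94) or NSC replicate 1 (−0.86). Of the replication genes, 6 of 20 were lower beside it. Under the 2-fold limit, Tet1 (−0.85, adjusted p = 0.00534), Dnmt1 (−0.79, adjusted p = 0.00157) and Tet2 (−0.50, adjusted p = 0.0306) were lower than in NSCs. Dnmt1 and Tet2 overlapped and Tet1 did not. Tet1 was 230 and 484 at day 20 and 979 and 802 at day 24, beside 982 in both NSC libraries.

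Ranked by group mean, neighbours in the order of the NSC-medium table mostly overlapped, except for Dnmt3a. Of the 27 neighbouring pairs in the NSC-medium table, 16 overlapped for Dnmt1, 12 for Dnmt3a, 21 for Dnmt3b, 24 for Dnmt3l, 19 for Uhrf1, 19 for Tet1, 17 for Tet2 and 21 for Tet3. At the top of the Tet1 order, both iNSC lines and the NSCs overlapped, and 4-factor eSox17FNV cells at day 30 (881 and 836) lay below the NSCs and the 4-factor line but overlapped the 2-factor line. The 4-factor eSox17FNV cells at day 24 and the single Sox2 libraries of days 24 and 30 came next, each without overlap with its neighbours. Dnmt3a was lowest in MEFs and highest in 4-factor eSox17FNV cells at day 30, with no overlap at either end. Tet3 was highest in the 2-factor line (3252 and 2820), followed by the NSCs, and Tet2 and Tet3 were both lowest in MEFs. In the parallel table, Tet1, Tet2 and Uhrf1 were highest in LIF/2i at day 24, Dnmt3a in NSC medium at day 24, Dnmt3l in LIF/2i at day 16 and Tet3 in primary NSCs.

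**Figure D3:**
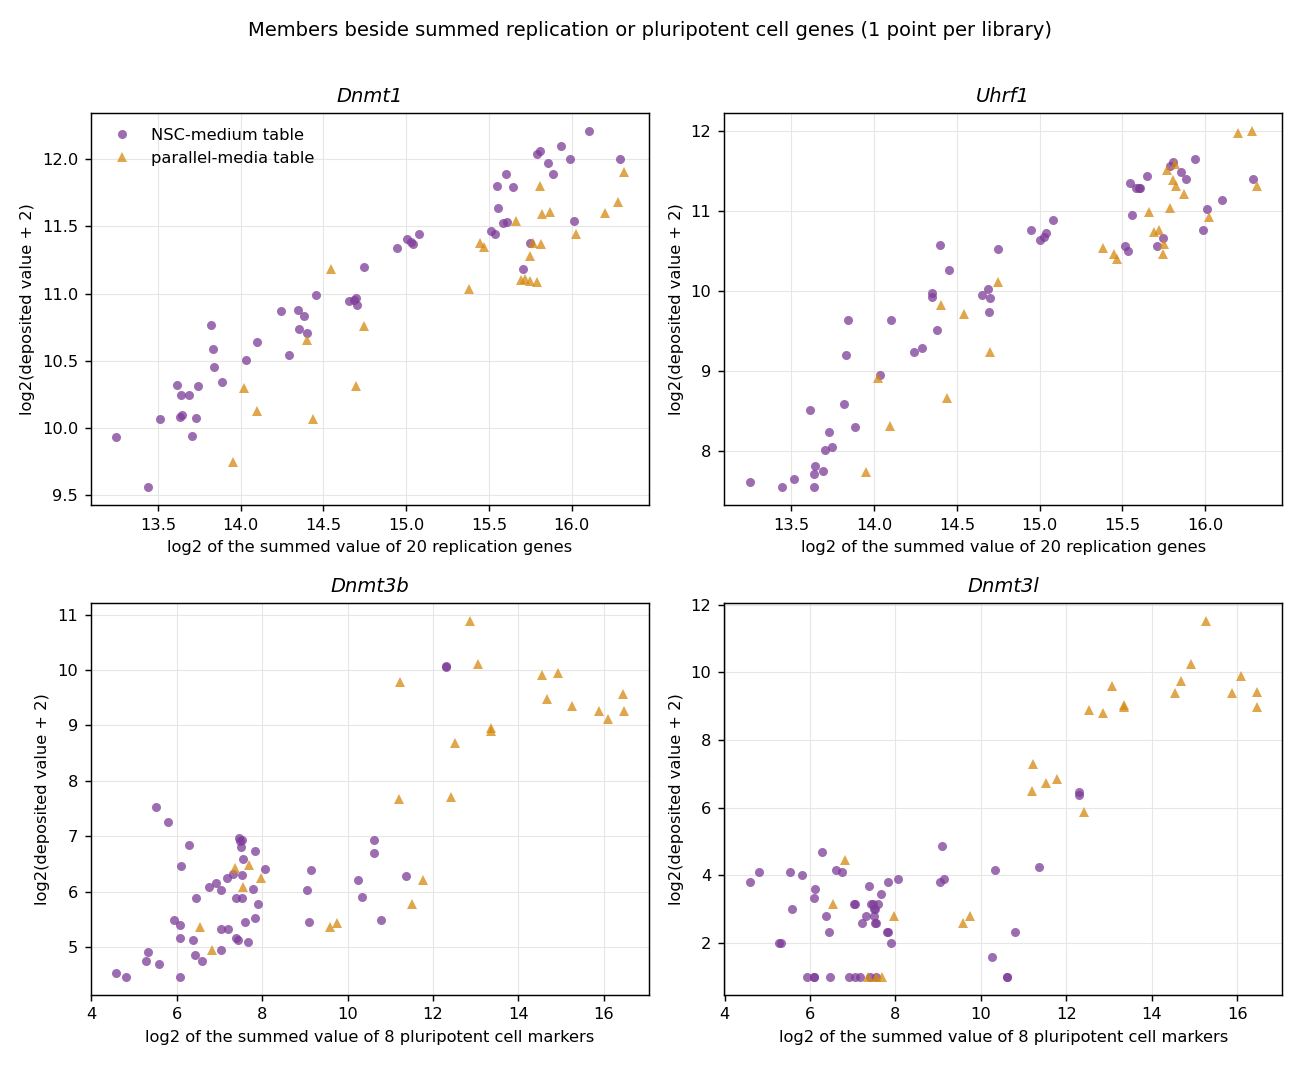
Dnmt1 and Uhrf1 against the summed level of 20 replication genes, and Dnmt3b and Dnmt3l against the summed level of 8 pluripotent markers, both axes on a log2 scale, with 1 point per library of either table. Dnmt1 and Uhrf1 follow the replication sum through both tables, and the highest Dnmt3b and Dnmt3l of the NSC-medium table stand with its highest pluripotent sums, at day 24 of 4-factor eSox17FNV cells.

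Over the group means of log2 values, Dnmt1 and Uhrf1 had nearly the same pattern, with r = 0.947 over 28 groups of the NSC-medium table and 0.948 over 13 groups of the parallel table. With the replication sum, r was 0.959 and 0.922 for Dnmt1 and 0.928 and 0.937 for Uhrf1. Tet1 had 0.693 and 0.753, Tet3 0.591 and 0.220, Dnmt3b 0.474 and 0.301, and Tet2 −0.03 and 0.58. Dnmt3a had 0.05 and 0.20, and Dnmt3l −0.01 and 0.06. With the pluripotent sum, r was 0.598 and 0.819 for Dnmt3b and 0.289 and 0.914 for Dnmt3l. With the epithelial sum it was 0.205 and 0.550 for Dnmt3b and 0.464 and 0.835 for Dnmt3l. With the NSC marker sum it was 0.882 and 0.433 for Tet1. Tet1 and Tet2 were alike in the parallel table (0.907) and not in the NSC-medium table (0.0431). These are descriptions. The groups share their starting cells, media and normalization, and successive days of a course are not independent.

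Among 15047 genes (15048 for Dnmt3l) that reached a value of 100 in each table, those most like each member by the lower of both correlations were named. For Uhrf1 they were Mcm3, Mcm5 and Mcm2 (lower r 0.953 to 0.967), subunits of the replicative helicase. For Dnmt1 they were Uhrf1, Espl1 (separase) and Lmnb2 (lamin B2), with a lower r of 0.932 to 0.947. Dnmt3a was most like Adgrl1 (0.901), 6330403K07Rik (0.837) and Zmym3 (0.831), and Tet1 most like Pald1 (0.931), Atad2b (0.91) and Usp37 (0.908). Tet3 was most like Zfp609 (0.864), Cnot6 (0.854) and Dip2c (0.848), and Tet2 most like Baz2a (0.827), Atp11b (0.814) and Ttc5 (0.790). Dnmt3l was most like Dusp9 (0.692), Nampt (0.677) and Mif (0.673). Dnmt3b had no close match beyond a vomeronasal and olfactory receptor set, Vmn2r97 (0.750), Olfr836 and Vmn2r12, multigene families whose counts are uncertain.

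**Figure D4:**
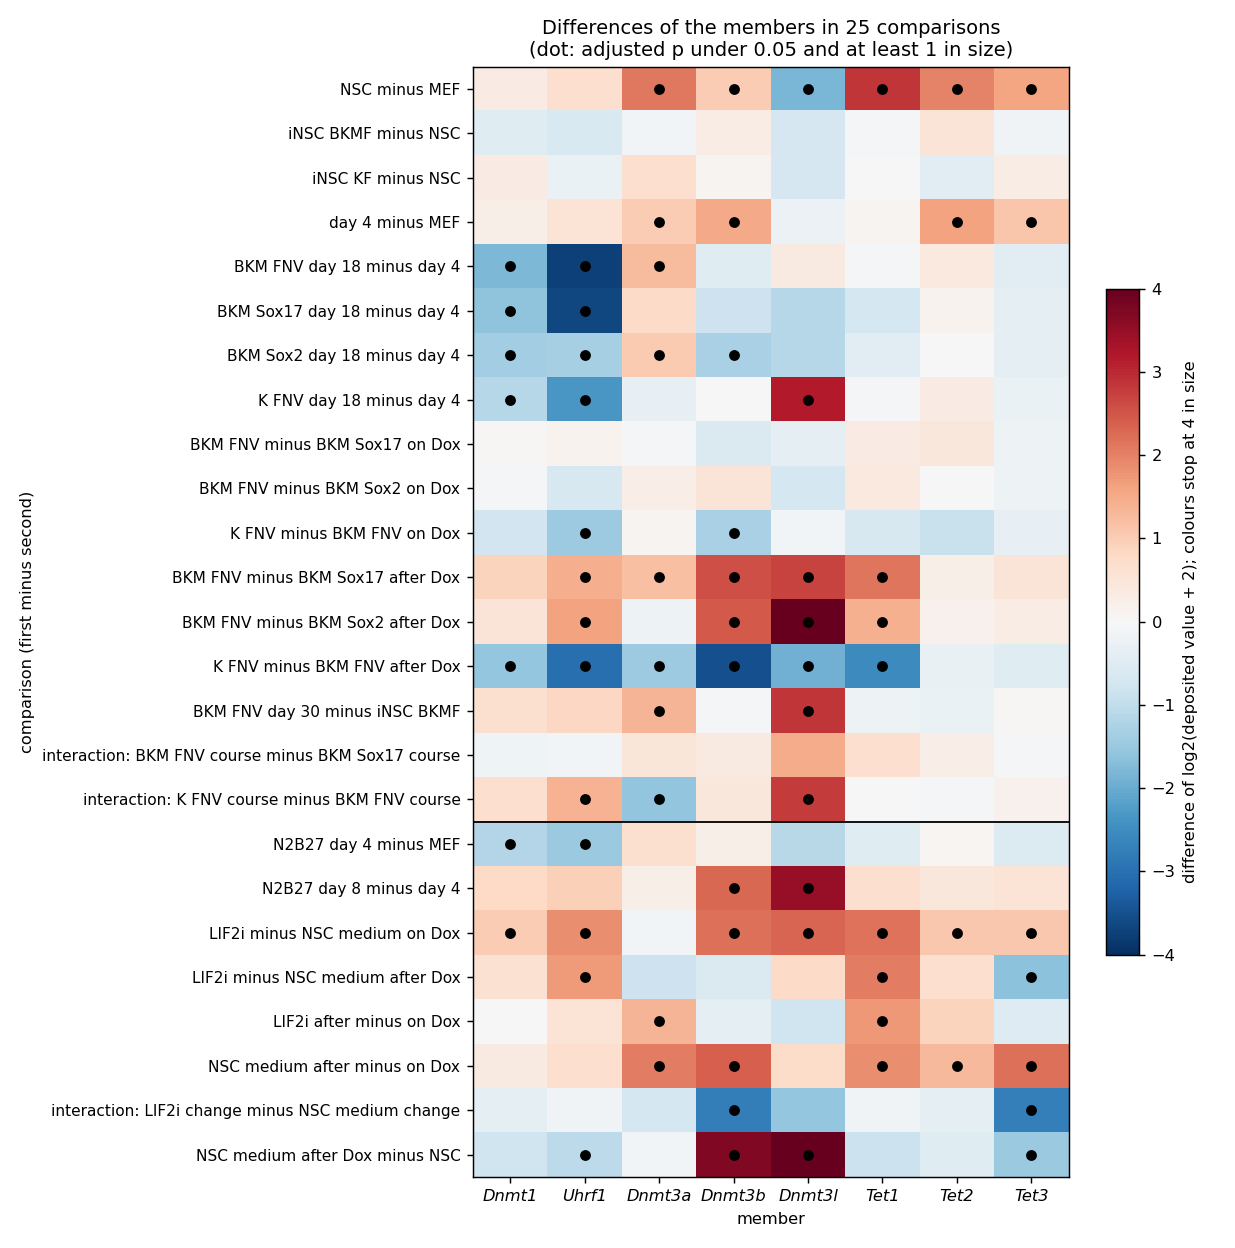
Log2 difference of each of the 8 members in each of the 25 comparisons, as a heat map with a dot where limma called the difference and colours that stop at ±4; the line separates the NSC-medium from the parallel table. Dnmt1 and Uhrf1 are called lower together in the 4 courses on Dox, where 10.4% to 22.9% of all genes are called. None of these calls held with the left-out Sox2 day 24 column included, which left their log2 differences unchanged and entered only through the spread shared by all groups. In LIF/2i, 7 of 8 members are called higher than in NSC medium on Dox, against 15.5% of all genes. Of these, Dnmt1, Tet2 and Tet3 lie at the 2-fold limit.

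Other genes of the pathway were taken from lists, described here by counts and medians. The medians over all genes ranged from −0.18 to 0.08 over the comparisons. Of all genes, 34.4% were called between NSCs and MEFs. In the courses on Dox, 22.9% were called in 4-factor eSox17FNV, 19.0% in Sox17, 17.0% in Sox2 and 10.4% in 2-factor cells. After Dox, 4-factor eSox17FNV cells differed in 17.8% from Sox17, 15.1% from Sox2 and 21.7% from 2-factor cells. Between LIF/2i and NSC medium after Dox, 24.5% were called. A list count near such a share says nothing particular of the list. Of 14 partners of maintenance methylation, 4 fell from day 4 to day 18 in 4-factor eSox17FNV cells: Hells (−2.31), the helicase that opens chromatin for methylation, its activator Cdca7 (−2.05), the sliding clamp Pcna (−1.91), and Trim28 (−1.02). The list median was −0.39. Cdca7 was also called lower in the other 3 courses, and Hells and Pcna in the Sox17 and Sox2 courses. After Dox, 3 of the 14 were higher in 4-factor eSox17FNV than in Sox17 cells, Cdca7 (1.63), Cbx5 (1.35) and Hells (1.07), and 4 were lower in 2-factor cells. In LIF/2i after Dox, 5 were higher than in NSC medium, led by Trim28 (1.65), a corepressor, and Hells (1.51).

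Of 18 genes of demethylation and repair, NSCs had 6 higher and 4 lower than MEFs (list median 0.31), among them Ogt (2.04), the sugar transferase that binds Tet proteins, Parp1 (1.86) and Gadd45b (−2.97). On Dox in 4-factor eSox17FNV cells 5 rose and 4 fell (list median −0.30). Gadd45a went from a mean of 67.5 at day 4 to 919 at day 18 (3.73) and Gadd45b from 84.5 to 468 (2.44). Both are stress-response genes that have been linked to demethylation, and both were called in all 4 courses. Of 12 methyl-CpG readers and CXXC proteins, 3 rose and 2 fell in that course (list median 0.24). Zbtb4, which binds methylated DNA, rose in all 4 courses, by 2.93, 2.27, 2.44 and 1.45, and was lower in NSCs than in MEFs (−2.25).

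Of 11 genes of the methyl donor cycle tested, which supplies the methyl group, 6 fell and 1 rose in the 4-factor eSox17FNV course (list median −1.37), led by Shmt2 (−3.07), Shmt1 (−2.58) and Mthfd1 (−2.18). These 3 one-carbon enzymes also supply nucleotide synthesis. The same list had 5 lower and 1 higher in Sox17 cells, 3 and 1 in Sox2 cells, and 2 lower in 2-factor cells. In LIF/2i after Dox, 4 of the 11 were higher than in NSC medium and 1 lower, with Shmt1 at 2.54.

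Of 10 regulators of pluripotent and germ cells, 9 were higher in 4-factor eSox17FNV than in Sox17 cells after Dox (list median 2.11, from fitted values of which some stand against groups listed at 0), 9 than in Sox2 cells, and 9 were lower in 2-factor cells. In LIF/2i after Dox 9 were higher than in NSC medium (list median 3.05), led by Esrrb (6.35), Nanog (4.51) and Prdm14 (4.04), a repressor of Dnmt3b and Dnmt3l in naive stem cells. In the same comparison Dnmt3b (−0.56, adjusted p = 0.0921) and Dnmt3l (0.77, adjusted p = 0.133) were not called. Of 13 germline genes tested, whose promoters are methylated in somatic cells, 5 were higher in 4-factor eSox17FNV cells after Dox than in Sox17 cells, among them Ddx4 (mean 282 against 33.3) and Mael (59 against listed at 0). In LIF/2i after Dox, 4 of 14 were higher than in NSC medium and none lower. Methylation itself was not measured in these data.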

How the data were processed

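Per the labels, messenger RNA of mouse cells was sequenced after oligo(dT) capture. Per the submitters' processing notes, RSEM, Bowtie2 2.0 and mm10 were used. The authors deposited 1 normalized value per gene and library, a whole number treated as a score and not as a count, and within a table all columns sum to nearly the same total, so depth and its precision are unknown. Columns were matched to samples by name; those of the primary NSCs matched only their group, and 4 columns matched no sample and were not used. Sox2 cells at day 24 replicate 1 was left out of the main results and included in an alternative.

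Values were taken to log2(value + 2), and genes with at least 10 in at least 2 libraries were kept (20760 and 20468). Each table was fitted once with limma 3.58.1 in R 4.3.3 (1 mean per group, variance trend on the mean, two-sided moderated tests). P-values were adjusted with Benjamini-Hochberg within each of 25 comparisons, and a call needed an adjusted p under 0.05 and an absolute log2 difference of at least 1. The fit was tested on simulated data. Comparisons over several days average the differences within days. Tables were read with Python 3.11.15 and pandas 2.3.3. The 9 alternatives besides leaving out each library were pseudocounts of 1 and 10, no filter, a minimum of 50, centred libraries, no minimum fold, only the groups compared, a replicate block, and the left-out column.

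The members and the 7 lists (99 other genes: maintenance and chromatin partners, demethylation and repair partners, methyl-CpG readers and CXXC proteins, methyl donor cycle, regulators in pluripotent and germ cells, germline genes with methylated promoters, replication genes) were chosen with earlier results of these data known. All 8 members were tested and counted in every comparison. From each list, up to 3 called genes with the largest difference were named, and the call of Trim28 in 1 course, those of Ddx4 and Mael, and the group means given were chosen after their values were seen. The 3 genes most like each member were named by the lower of its correlations in the tables.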

Additional observations from a re-analysis of the deposited data

Results flagged for a closer look

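In 5 cases a member's change differed between courses or media by a test of the difference itself. Between days 4 and 18 on Dox, 2-factor minus 4-factor eSox17FNV cells gave a difference of log2 differences of −1.57 for Dnmt3a (adjusted p = 1.08e-08 in limma), which was higher at day 18 in both libraries of 4-factor cells and lower in both of 2-factor cells. For Uhrf1 it was 1.40 (adjusted p = 0.0152), lost without either of 2 libraries. For Dnmt3l the fitted value was 2.81 (adjusted p = 0.00278), with the day 4 libraries of 2-factor cells listed at 0, so no fold is given. Between LIF/2i and NSC medium, the change from days 12 and 16 to days 20 and 24 differed by −2.78 for Dnmt3b (adjusted p = 9.1e-05) and −2.72 for Tet3 (adjusted p = 0.000528). The first of these includes the low Dnmt3b of day 16 in NSC medium, 53 and 72, between 496 and 476 at day 12 and 409 and 1108 at day 20.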

How the results depend on the processing

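Of 200 member results, 71 were called, 43 of these held in every setting run, 28 were lost in at least 1, and none reversed. With the left-out Sox2 day 24 column included, 22 calls of Dnmt1, Uhrf1, Dnmt3a and Tet3 were lost. Each kept its log2 difference, since the column stood in none of the comparisons concerned. The number of members called became 2 at day 4 against MEFs, 0 in the 4-factor eSox17FNV course, 0 in the Sox17 course, 1 in the Sox2 course, 1 in the 2-factor course, 1 for 2-factor against 4-factor cells on Dox, 3 for 4-factor eSox17FNV against Sox17 cells after Dox, 1 at day 30 against the 4-factor line and 1 for the interaction of the 2-factor and 4-factor courses. With no minimum fold change it became 1 for the 4-factor line and 3 for the 2-factor line against NSCs, 5 in the 4-factor eSox17FNV course, 6 in the Sox17 course, 4 and 6 for 4-factor eSox17FNV against Sox17 and Sox2 cells on Dox, 6 for 2-factor against 4-factor cells on Dox, 4 at day 30 against the line, 1 for the interaction of the 4-factor eSox17FNV and Sox17 courses, 4 for day 8 against day 4 in N2B27, 6 for LIF/2i against NSC medium after Dox, 4 for LIF/2i after against on Dox and 7 for NSC medium after Dox against NSCs. Leaving out 1 library gave 4 to 7 members for LIF/2i against NSC medium on Dox. Pseudocount 10 ended 3 calls, centring 2 and a fit of only the groups compared 2, while pseudocount 1, no filter and a minimum of 50 ended none.

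Over all genes, the share called moved by over 1.5 times with no minimum fold change (5.22% to 62.9%), and with a fit of only the groups compared to 0.416% for the 4-factor line, 4.63% for the 2-factor line and 1.94% for day 8 in N2B27. With the left-out column included it became 0.440% and 3.35% for the 4-factor and 2-factor lines, 11.3% at day 4, 10.0%, 8.07%, 6.96% and 3.49% in the 4-factor eSox17FNV, Sox17, Sox2 and 2-factor courses, and 2.12% on Dox and 10.7% after Dox for 4-factor eSox17FNV against Sox17 cells. It became 31.7% against Sox2 cells after Dox, 17.8% at day 30 against the line, and 0.180% and 3.05% for the interactions of the 4-factor eSox17FNV course with the Sox17 and 2-factor courses. Pseudocount 10 gave 2.39% for 4-factor eSox17FNV against Sox17 cells on Dox. Without NSC replicate 2 it was 3.06% for the 4-factor line, and for N2B27 day 8 it was 3.07% without day 4 replicate 1 and 2.64% without day 8 replicate 2.

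Replicate numbers did not pair the samples: deviations from group means correlated at −0.0756 to 0.0918 over 276 pairs of groups and at −0.0498 to 0.0876 over 66. The replicate block left the number of members called as it was in all comparisons it could be fitted for, except the interaction of the media, with 3 in place of 2 (Dnmt3l −1.55, adjusted p = 0.0363). No paired analysis was possible because the NSC columns could be matched only to their group, for the 4 comparisons with NSCs. Low genes such as Dnmt3l are limited most, since 1 read is of unknown worth.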
